A study of Mus musculus with 16 samples.

Results

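TGF-beta and activin are secreted dimers that share one receptor design, and 10 genes of this system were followed here in macrophages sorted from mouse pancreas. They are the ligand genes Tgfb1, Tgfb2, Tgfb3, Inhba and Inhbb, the receptor genes Tgfbr1 and Tgfbr2, the latency gene Ltbp1, the inhibitor gene Smad7 and the target gene Tgfbi. The genes were chosen by name, from the gene names in the scanner files, with the brightest probe standing for a gene. All 10 were on the array and all 10 passed the filter on dim probes, among 24278 genes tested.

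RNA was measured on 16 one-colour Agilent arrays, 4 on each of 4 slides. The groups were 5 samples of tumor YFP+ macrophages, 5 of tumor YFP- macrophages, 3 of normal YFP+ macrophages and 3 of normal YFP- macrophages, where normal means pancreas without tumor. All mice were female, 8 to 10 weeks old and of the C57/B6 background. The design text names wild-type, KPC and FLT3-CRE/LSL-YFP mice, where KPC is a genetic model of pancreatic cancer and the Flt3-driven Cre switches on YFP permanently. YFP thus marks descendants of cells that once expressed Flt3, a receptor of early blood progenitors. The sample labels give the genotype as not provided and the treatment text speaks of implanted tumors, so the tumor model of a given mouse is not known here. The number in a sample title was taken to be the mouse, and by it each of 5 tumor mice and 3 mice with normal pancreas gave both populations. The labels do not state that the numbers are mice, so p-values measure the spread between these samples, which may be technical.

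TGF-beta is secreted in a latent form, bound to its own propeptide and often to a latent TGF-beta binding protein such as the product of Ltbp1, and it must be released before it can signal. The active ligand binds the type II receptor (Tgfbr2), which recruits and phosphorylates the type I receptor (Tgfbr1). The type I receptor phosphorylates Smad2 and Smad3, which enter the nucleus with Smad4. Activins, dimers of the chains encoded by Inhba and Inhbb, use receptors of their own and the same Smads. Smad7 is an inhibitory Smad whose gene is induced by the pathway and whose product blocks the type I receptor. Macrophages are known both as a source of these ligands and as cells that respond to them, and in pancreatic cancer TGF-beta is known for its action on the fibrous stroma.

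Sequences of the probes for 3 ligand genes are shown because the largest differences among the ligand genes below rest on Inhba and Tgfb2. The Tgfb1 and Tgfb2 probes also read related stretches of the region that encodes the mature ligand. The sequences are the 60-base probe sequences of the scanner files, with their positions on build mm9, for which no gene annotation was used here. Capitals mark the stretch in which the Tgfb1 and Tgfb2 probes overlap when laid over each other without gaps.
Tgfb1, chr7:26489877-26489936, plus strand: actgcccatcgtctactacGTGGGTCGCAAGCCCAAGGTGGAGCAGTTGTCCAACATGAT
Tgfb2, chr1:188449333-188449392, minus strand: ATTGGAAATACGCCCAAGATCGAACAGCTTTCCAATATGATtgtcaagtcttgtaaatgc
Inhba, chr13:16118634-16118693, plus strand: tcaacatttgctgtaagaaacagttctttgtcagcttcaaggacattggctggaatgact
Of the 41 overlapping bases of the Tgfb1 and Tgfb2 probes, 28 (68.3%) were the same. The best ungapped match of the Inhba probe was 16 of 35 bases (45.7%) with the Tgfb1 probe and 9 of 20 bases (45%) with the Tgfb2 probe.

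Levels below are log2 processed signal minus the 75th percentile of the array, so that 0 stands for that percentile and each step of 1 is a doubling. The 75th percentile lay between 2175 and 3409 intensity units, between 64.85% and 75.39% of spots were well above background on an array, and no spot was saturated on any of the 16 arrays. Levels of different genes come from different probes and were not compared. The correlation across genes between arrays of one group was lowest among tumor YFP- samples (r = 0.908) and highest among tumor YFP+ samples (0.977). Both arrays of mouse 23912 stood apart from their groups. The normal YFP- sample of mouse 23912 had a macrophage marker mean of 3.72, against 4.71 and 4.63 in the other normal YFP- samples, and a fibroblast marker mean of -1.98, against 1.09 and -0.15. That array was also the lowest of its group in Tgfb1, Tgfb2, Tgfb3, Ltbp1, Tgfbr2 and Tgfbi and the highest in Inhba and Inhbb. The normal YFP+ sample of the same mouse had a T and NK cell marker mean of -0.49, against -2.41 and -2.58 in the other normal YFP+ samples, and a neutrophil marker mean of 0.44, against -1.77 and -3.81. It was the lowest of its group in Tgfb1, Tgfb2, Ltbp1, Tgfbr2 and Tgfbi and the highest in Tgfb3, Inhba and Inhbb. Tumor minus normal differences are therefore also given without the mouse 23912 sample of the normal group concerned.

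The sorted cells carried the markers of their label. All 12 macrophage markers, among them Csf1r, Adgre1 and Cd68, were well above background on every array, with list means of 4.17 in tumor YFP+, 4.21 in tumor YFP-, 4.21 in normal YFP+ and 4.35 in normal YFP- cells. Markers of other cell types differed between the groups, as the plot of marker lists shows. The mean of the fibroblast list was -2.71 in tumor YFP+ cells (range -3.27 to -2.23), 1.13 in tumor YFP- cells (0.68 to 1.47), -1.93 in normal YFP+ cells (-2.66 to -1.26) and -0.34 in normal YFP- cells (-1.98 to 1.09). The mean of the acinar list was -2.41 in tumor YFP+ cells (-2.70 to -1.99) and -0.68 in tumor YFP- cells (-1.55 to -0.10), against 5.18 in normal YFP+ cells (4.85 to 5.39) and 5.82 in normal YFP- cells (5.20 to 6.41). In such sorted bulk samples fewer cells of a type and less RNA per cell cannot be told apart.

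**Figure D1:**
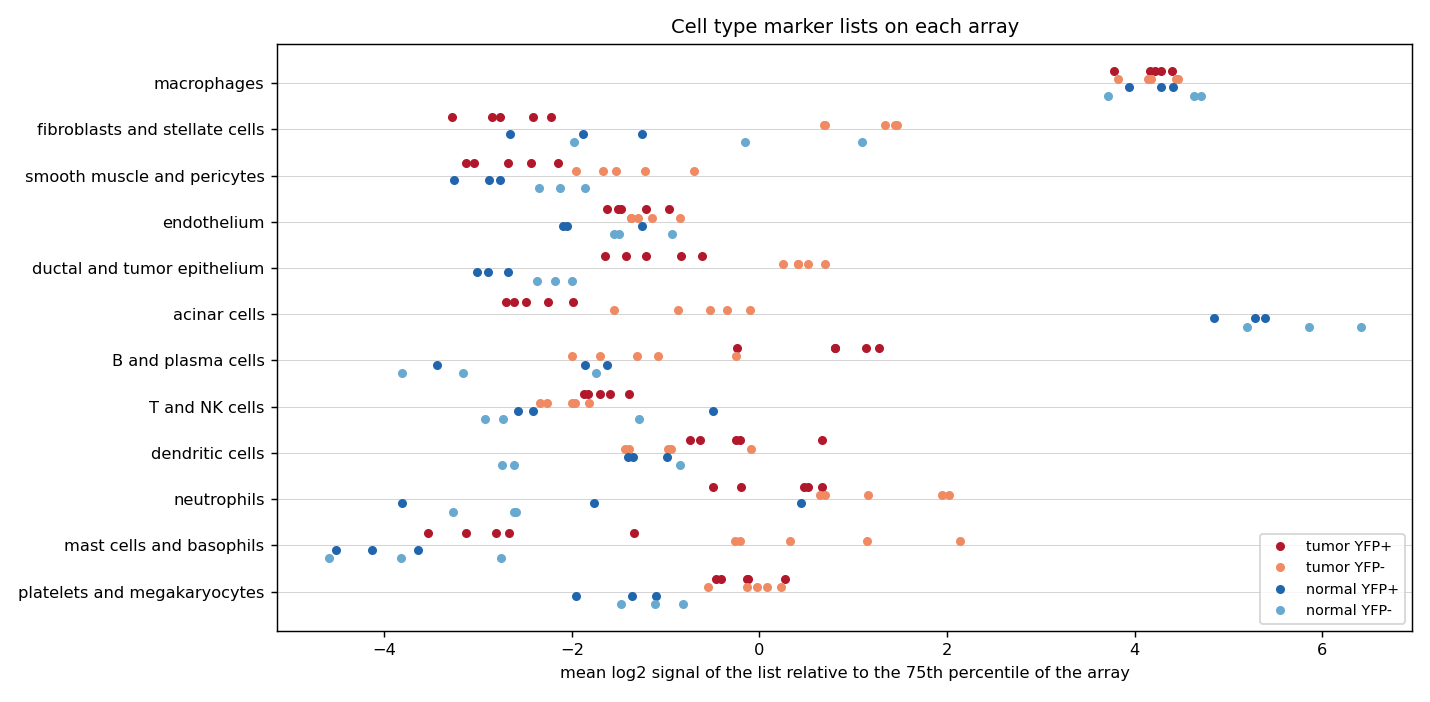
Mean log2 signal of each of 12 cell type marker lists relative to the 75th percentile of the array, 1 point per array, coloured by group. The macrophage list lies between 3.72 and 4.71 on all 16 arrays, while the acinar list is at 4.85 or higher in every normal sample and below 0 in every tumor sample.

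Tumor and normal macrophages differed most in Inhba, the gene of the activin beta A chain. Inhba was at 0.06, -0.53, -0.60, -1.40 and -1.55 in tumor YFP+ samples, against -6.89, -6.90 and -7.18 in normal YFP+ samples. It was at -0.50, -0.74, -0.83, -0.91 and -0.96 in tumor YFP- samples, against -4.93, -6.65 and -7.12 in normal YFP- samples. All 10 tumor samples were well above background and none of the 6 normal samples was, so the groups did not overlap. Inhba was therefore at least 15.3-fold higher in tumor YFP+ than in normal YFP+ cells (log2 difference 6.19 ± 0.43, SE, limma adjusted p = 3.66e-07). It was at least 14.2-fold higher in tumor YFP- than in normal YFP- cells (5.44 ± 0.43, SE, limma adjusted p = 1.08e-06). For an "at least" fold, each array of the dimmer group was given no less than the lowest signal that was well above background on it. This floor was taken over the whole array and is not the detection limit of the gene's own probe. An "at least" fold, here and below, is therefore an estimate under this background handling and not a strict lower bound. For Inhba the floored log2 differences were 3.93 in YFP+ and 3.83 in YFP- cells. With normexp background correction, which adds an offset of 50 to all signals, the log2 differences were smaller, at 3.20 and 3.04, with limma adjusted p = 7.29e-07 and 1.21e-06. Within the slides that held both groups, the difference was 6.36 to 6.96 in YFP+ and 3.97 to 6.21 in YFP- cells, over 3 slides each. Without the normal sample of mouse 23912 it was 6.23 in YFP+ and 6.09 in YFP- cells.

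Smad7, the inhibitory Smad, was the other gene measured on every tumor array and on no normal array. Its level was -2.32, -2.56, -2.77, -2.79 and -3.51 in tumor YFP+ samples, against -5.23, -5.46 and -5.56 in normal YFP+ samples. In YFP- cells it was -2.26, -2.56, -2.87, -3.13 and -3.41 in tumor samples, against -6.62, -6.86 and -7.13 in normal samples. Every tumor sample lay above every normal sample. Smad7 was at least 3.85-fold higher in tumor YFP+ than in normal YFP+ cells (log2 difference 2.63 ± 0.28, SE, limma adjusted p = 2.74e-05). In YFP- cells it was at least 3.42-fold higher in tumor than in normal samples (4.02 ± 0.28, SE, limma adjusted p = 3.47e-07). With normexp correction the log2 differences were 1.08 and 1.60. Within slides they were 2.44 to 3.24 in YFP+ cells and 3.72 to 3.75 in YFP- cells, and without the normal sample of mouse 23912 they were 2.60 and 4.03.

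Among the TGF-beta ligands, Tgfb3 was higher in tumor in both populations. Tgfb3 was at -0.56, -0.82, -0.83, -0.84 and -1.22 in tumor YFP+ samples, against -1.63, -1.64 and -2.64 in normal YFP+ samples. It was at 0.01, -0.06, -0.36, -0.59 and -0.94 in tumor YFP- samples, against -1.36, -1.45 and -1.75 in normal YFP- samples. All tumor samples were again above all normal samples of the same population. The YFP+ comparison gave a 2.17-fold higher Tgfb3 level in tumor (1.12 ± 0.27 on the log2 scale, SE, limma adjusted p = 0.0124), and the YFP- comparison a 2.19-fold higher one (1.13 ± 0.27, SE, limma adjusted p = 0.00974). The YFP+ call rests on the lowest normal sample: without the normal YFP+ sample of mouse 23917 the difference was 0.78 with adjusted p = 0.0856. Within slides it was 0.42 to 1.82 in YFP+ and 0.77 to 1.45 in YFP- cells, and without the normal sample of mouse 23912 it was 1.28 in YFP+ (adjusted p = 0.0161) and 1.02 in YFP- cells (adjusted p = 0.0406).

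Tgfb1 encodes the main TGF-beta of immune cells. It was at 3.41, 3.34, 3.34, 3.27 and 3.0 in tumor YFP- samples, against 2.83, 2.73 and 2.53 in normal YFP- samples. It was at 3.55, 3.40, 3.19, 3.19 and 3.15 in tumor YFP+ samples, against 3.19, 2.95 and 2.89 in normal YFP+ samples. The YFP- groups did not overlap and the YFP+ groups did. Tgfb1 was 1.49-fold higher in tumor YFP- than in normal YFP- cells (log2 difference 0.57 ± 0.16, SE, limma adjusted p = 0.0208), while the YFP+ difference was 0.28 (95% interval -0.05 to 0.61, limma adjusted p = 0.30), and 0.22 without the normal YFP+ sample of mouse 23912. The YFP- call was lost when arrays were quantile normalized (adjusted p = 0.0591), when the deposited values were used (0.0589), without the normal YFP- sample of mouse 23912 (0.0780) and without that of mouse 23916 (0.0619).

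In YFP- cells the pair of signalling receptors moved in opposite directions between tumor and normal, and in YFP+ cells only Tgfbr1 passed the test. Tgfbr1, the type I receptor, was at 2.55, 2.27, 1.78, 1.77 and 1.72 in tumor YFP+ samples, against 1.36, 1.35 and 1.11 in normal YFP+ samples. It was at 2.24, 2.15, 2.10, 1.99 and 1.70 in tumor YFP- samples, against 1.54, 1.06 and 0.99 in normal YFP- samples. Neither pair of groups overlapped. Tgfbr1 was higher in tumor by 1.68-fold in the YFP+ comparison (0.74 ± 0.22 on the log2 scale, SE, limma adjusted p = 0.0373) and by 1.79-fold in the YFP- comparison (0.84 ± 0.22, SE, limma adjusted p = 0.0163). Its second probe differed by 1.16 and 0.67, and with the mean of both probes the adjusted p was 0.0701 and 0.126. In YFP+ cells the call was lost without either of the tumor samples of mice 23548 and 23677 or any 1 of the 3 normal samples (adjusted p up to 0.152), and in YFP- cells without the normal sample of mouse 23912 (0.0565) or 23916 (0.0861).

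Tgfbr2, the type II receptor that binds the ligand, was at 2.28, 1.92, 1.72, 1.60 and 1.59 in tumor YFP- samples, against 3.35, 3.16 and 1.87 in normal YFP- samples. It was at 2.08, 1.76, 1.72, 1.57 and 1.48 in tumor YFP+ samples, against 2.69, 2.57 and 2.26 in normal YFP+ samples. The YFP+ groups did not overlap. In the YFP- comparison the low normal sample was that of mouse 23912, and it lay within the tumor range. Tgfbr2 was 1.96-fold lower in tumor YFP- than in normal YFP- cells (log2 difference -0.97 ± 0.29, SE, limma adjusted p = 0.0340), and -1.43 without that sample (adjusted p = 0.000667). Its second probe differed by -0.78 in YFP+ and -1.0 in YFP- cells. The YFP+ difference was -0.79 (95% interval -1.41 to -0.17, limma adjusted p = 0.0979), and -0.91 without the normal YFP+ sample of mouse 23912 (adjusted p = 0.124). It passed the threshold after quantile normalization (-0.92, adjusted p = 0.0406), in the deposited values (-0.93, adjusted p = 0.0387) and without the normal YFP- sample of mouse 23912 (adjusted p = 0.0155). The YFP- call was lost with the mean of the 2 probes of Tgfbr2 (0.0520) and without any 1 of the tumor samples of mice 23550, 23548 and 23677 or the normal samples of mice 23917 (0.155) and 23916 (0.161).

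Read over the 10 genes, 5 passed the test between tumor YFP+ and normal YFP+ cells, where 12.1% of all genes tested did. The 4 that rose were Tgfb3, Inhba, Tgfbr1 and Smad7 (6.03% of all genes rose), and the 1 that fell was Tgfb2 (6.06% fell). Between tumor YFP- and normal YFP- cells 6 passed, where 15.8% of all genes did. The 5 that rose were Tgfb1, Tgfb3, Inhba, Tgfbr1 and Smad7 (8.03% of all genes), and the 1 that fell was Tgfbr2 (7.74%). The median log2 difference of the 10 genes was 0.51 in YFP+ and 0.63 in YFP- cells, against -0.04 and -0.16 over all genes. Tumor and normal samples did not overlap in 5 of the 10 genes in YFP+ cells (21.9% of all genes) and in 5 in YFP- cells (19.6%). Marker lists of other cell types also differed between tumor and normal. All 9 acinar markers were lower in tumor in both populations, with median log2 differences of -7.43 in YFP+ and -6.81 in YFP- cells. Of the epithelial markers 3 of 8 were higher in YFP+ and 6 of 8 in YFP- tumor cells, of the neutrophil markers 4 of 7 and 5 of 7, of the mast cell markers 1 of 7 and 7 of 7, and of the B cell markers 5 of 8 and 4 of 8, with 1 of 8 lower in YFP- cells. Of the macrophage markers, 0 of 12 were higher and 2 lower in YFP+ cells, and 1 was higher and 1 lower in YFP- cells. The part of these other cell types in the tumor differences was not tested.

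**Figure D2:**
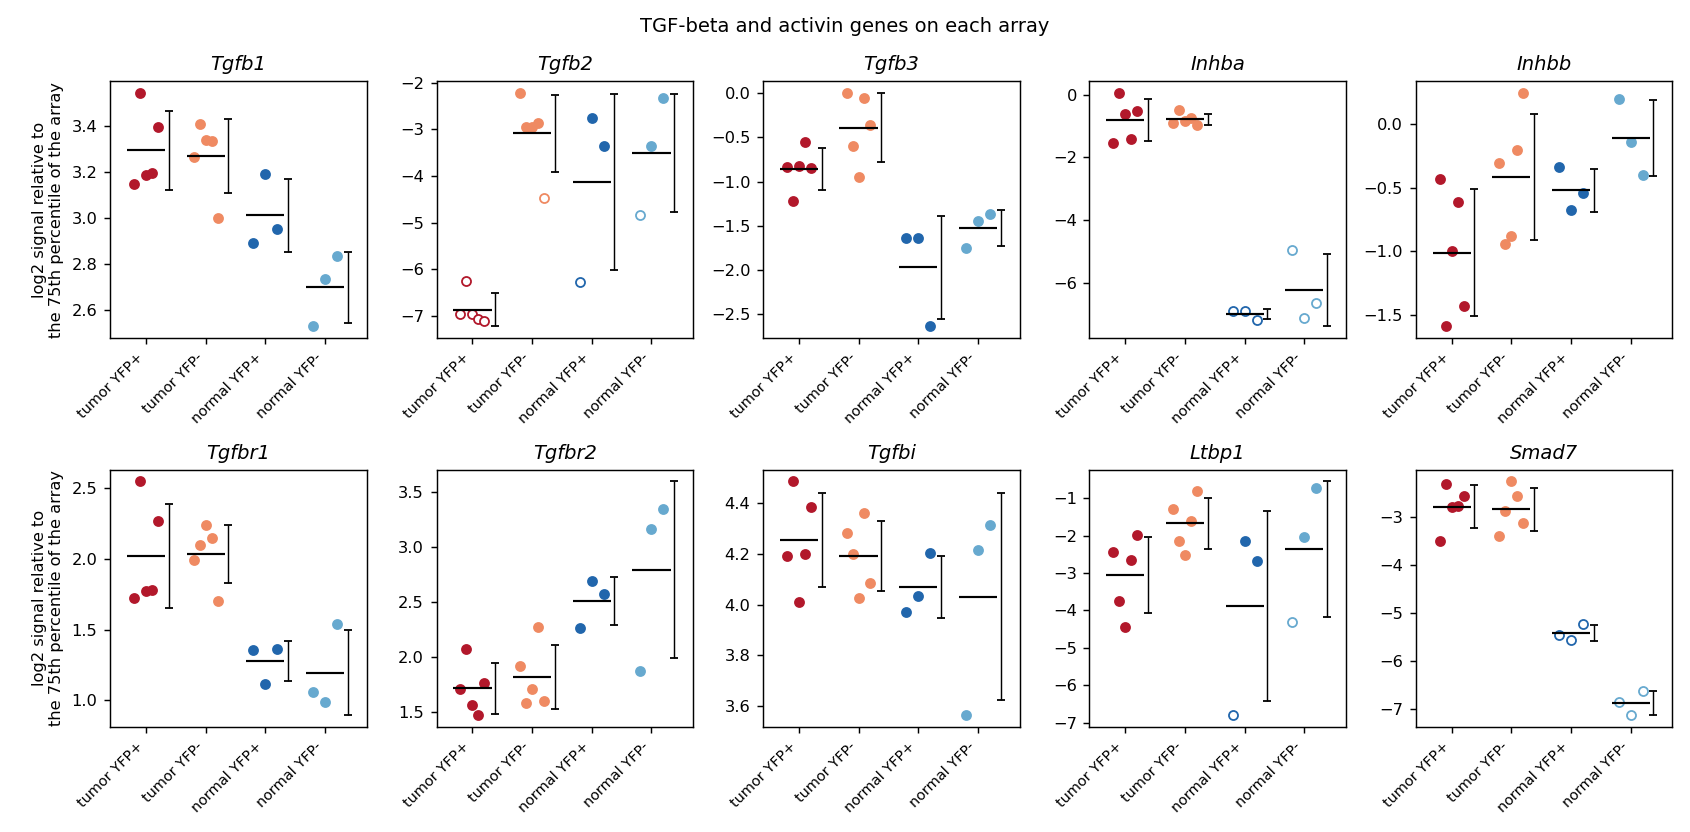
Log2 signal relative to the 75th percentile of the array for each of the 10 genes, 1 point per array, in the 4 groups, tumor left of normal. Open points are arrays not well above background, horizontal lines are group means and vertical bars are ± 1 SD; the scales differ between genes. Inhba and Smad7 are open on all 6 normal arrays and filled on all 10 tumor arrays, and Tgfb2 is open on all 5 tumor YFP+ arrays.

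Within tumors, YFP+ and YFP- macrophages were separated by Tgfb2. Its level was -6.24, -6.96, -6.96, -7.07 and -7.10 in tumor YFP+ samples, against -2.22, -2.86, -2.95, -2.95 and -4.48 in tumor YFP- samples. None of the 5 tumor YFP+ samples was well above background, 4 of the 5 tumor YFP- samples were, and the groups did not overlap. Tgfb2 was at least 3.45-fold lower in tumor YFP+ than in tumor YFP- cells (log2 difference -3.78 ± 0.62, SE, limma adjusted p = 0.00321). It was the only 1 of the 10 genes that passed this test, where 2.39% of all genes did and 1.62% fell, and the only 1 whose groups did not overlap, as for 4.32% of all genes. The difference was -1.71 with normexp correction (adjusted p = 0.00259) and -4.80 to -2.49 within the 4 slides. The second Tgfb2 probe, dimmer in all groups, differed by -1.85. That probe was well above background on 2 of 5 tumor YFP- and 0 of 5 tumor YFP+ arrays.

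Tgfb2 was also low in tumor YFP+ cells against normal YFP+ cells, a comparison that shares the tumor YFP+ samples. Normal YFP+ samples were at -2.77, -3.35 and -6.27, and normal YFP- samples at -2.33, -3.35 and -4.85, with 2 of 3 well above background in each group. The lowest of each normal group was that of mouse 23912, and in normal YFP+ cells it overlapped the tumor YFP+ range. Tgfb2 was at least 1.68-fold lower in tumor YFP+ than in normal YFP+ cells (log2 difference -2.74 ± 0.72, SE, limma adjusted p = 0.0207), and the second probe differed by -2.36. The call was lost after quantile normalization (adjusted p = 0.0591), in the deposited values (0.0589) and without the normal YFP+ sample of mouse 23916 (0.133) or 23917 (0.108). Without that of mouse 23912 the difference was -3.81 (adjusted p = 0.00132), and with normexp correction it was -1.13 (adjusted p = 0.0477). Between tumor YFP- and normal YFP- cells the difference was 0.42 (95% interval -1.11 to 1.96, limma adjusted p = 0.714), and its sign changed without the sample of mouse 23912 (-0.25), as it did on the second probe (-0.63).

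Fibroblast markers were also lower in tumor YFP+ than in tumor YFP- cells, in 9 of 11 markers and with a median log2 difference of -4.19. Between tumor YFP+ and normal YFP+ cells, where Tgfb2 was also lower, 1 of 11 fibroblast markers was lower and the median was -0.54. Lum and Pdgfra were not well above background on any tumor YFP+ array. Pdgfra and Pdgfrb were not on any normal YFP+ array, and Dpt was not in any group. Also lower in tumor YFP+ than in tumor YFP- cells were 5 of 7 mast cell markers, 5 of 8 epithelial markers and 5 of 9 acinar markers, and 3 of 8 B and plasma cell markers were higher. The part of such cells in the Tgfb2 difference was not tested. Over the 16 arrays the genes whose level was most like that of Tgfb2 were Col6a1 (r = 0.928), Ccn1 (0.922) and Col6a2 (0.921). Col6a1 and Col6a2 encode chains of collagen VI and Ccn1 a matricellular protein. Col6a1 is also among the 11 fibroblast markers counted here.

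The other 9 genes did not pass the test between tumor YFP+ and tumor YFP- cells. The narrowest intervals were those of Tgfb1 (log2 difference 0.02, 95% interval -0.26 to 0.31) and Tgfbi (0.06, -0.28 to 0.40). Tgfbr1 differed by -0.02 (-0.42 to 0.39; 0.60 on its second probe), Smad7 by 0.06 (-0.46 to 0.58), Tgfbr2 by -0.10 (-0.64 to 0.44) and Inhba by -0.02 (-0.81 to 0.78). Inhba and Smad7, the pair with the largest rise in tumor among the 10, were thus at overlapping levels in both tumor populations. Tgfb3 differed by -0.47 (-0.96 to 0.03, limma adjusted p = 0.528), and Inhbb, the activin beta B chain, by -0.59 (-1.17 to -0.02, limma adjusted p = 0.452).

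**Figure D3:**
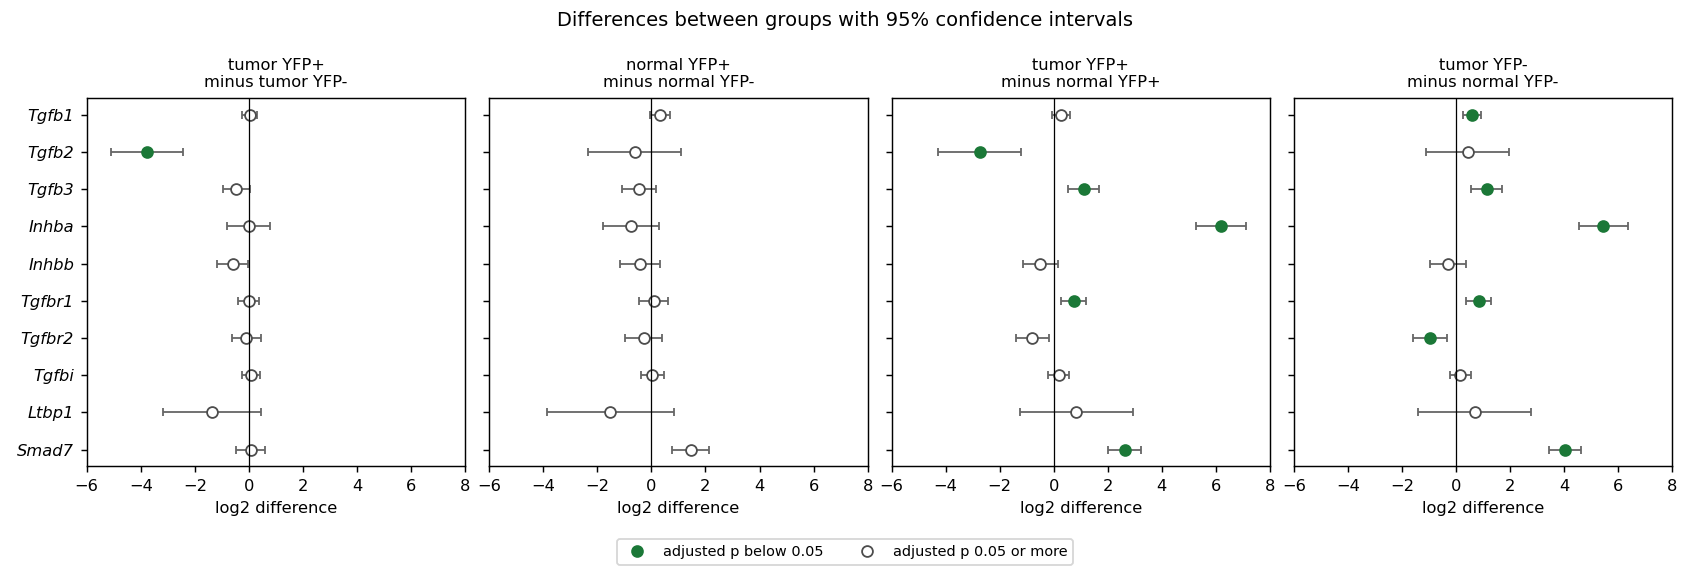
Log2 difference of each of the 10 genes in 4 comparisons, with bars for the 95% confidence interval. Filled points passed the limma test at an adjusted p of 0.05, which 1 gene did in tumor YFP+ against tumor YFP-, 0 in normal YFP+ against normal YFP-, 5 in tumor YFP+ against normal YFP+ and 6 in tumor YFP- against normal YFP-.

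Between normal YFP+ and normal YFP- macrophages none of the 10 genes passed the limma test, where 0.0206% of all genes did (5 genes, with 1854 at an unadjusted p under 0.05). Of the 10, only Smad7 had an unadjusted p under 0.05 (0.000367). Smad7 was higher in every normal YFP+ sample than in every normal YFP- sample, by 1.45 on the log2 scale (95% interval 0.78 to 2.13, limma adjusted p = 0.119), but no sample of either group was well above background. Tgfb1 did not overlap between these groups either, with a difference of 0.31 (-0.06 to 0.69, limma adjusted p = 0.742); 13.2% of all genes did not overlap. Of the fibroblast markers 0 of 11 passed in this comparison, with a median log2 difference of -1.63. Without the normal YFP- sample of mouse 23912 none of the 10 genes passed either, and 334 genes did in all.

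The YFP difference in tumor was set against the YFP difference in normal pancreas as an interaction. None of the 10 genes passed this limma test, where 0.103% of all genes did (25 genes, with 1450 at an unadjusted p under 0.05). The 2 of the 10 with the lowest p were Tgfb2 at -3.16 (95% interval -5.33 to -0.99, limma adjusted p = 0.512) and Smad7 at -1.40 (-2.25 to -0.55, limma adjusted p = 0.379). The Tgfb2 difference between YFP+ and YFP- cells was thus not shown to depend on the tissue.

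The remaining 3 genes passed no test. Tgfbi, a secreted matrix protein induced by TGF-beta, was at 4.49, 4.38, 4.20, 4.19 and 4.01 in tumor YFP+ samples, at 4.36, 4.28, 4.20, 4.08 and 4.03 in tumor YFP-, at 4.20, 4.03 and 3.97 in normal YFP+ and at 4.31, 4.21 and 3.57 in normal YFP- samples. All 4 groups overlapped, and the tumor minus normal difference was 0.18 (95% interval -0.21 to 0.58) in YFP+ and 0.16 (-0.23 to 0.55) in YFP- cells. Without the normal sample of mouse 23912 it was 0.14 in YFP+ cells, and its sign turned in YFP- cells (-0.07).

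Inhbb was at -0.43, -0.61, -1.0, -1.43 and -1.59 in tumor YFP+ samples, against -0.34, -0.54 and -0.68 in normal YFP+ samples. It was at 0.25, -0.21, -0.30, -0.88 and -0.95 in tumor YFP- samples, against 0.20, -0.14 and -0.40 in normal YFP- samples. Both pairs overlapped. The differences were -0.49 (95% interval -1.15 to 0.17) in YFP+ and -0.31 (-0.97 to 0.35) in YFP- cells, or -0.40 and -0.15 without the normal sample of mouse 23912. The intervals of Inhbb exclude a rise of the size seen for Inhba, the other activin chain.

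Ltbp1 varied more within groups than any of the other 9 genes in normal cells. It was at -1.98, -2.44, -2.64, -3.74 and -4.45 in tumor YFP+ samples, against -0.80, -1.28, -1.62, -2.15 and -2.51 in tumor YFP- samples. It was at -2.15, -2.69 and -6.80 in normal YFP+ samples, against -0.74, -2.03 and -4.31 in normal YFP- samples. The samples of mouse 23912 were again the lowest of both normal groups and were not well above background. The tumor YFP difference was -1.38 (95% interval -3.19 to 0.44, limma adjusted p = 0.670), and a second probe, designed to a different transcript record, differed by 0.38. The tumor minus normal difference was 0.83 (-1.26 to 2.92) in YFP+ and 0.69 (-1.41 to 2.78) in YFP- cells, where the second probe differed by 0.14 and -0.98. Without the normal sample of mouse 23912 both signs turned, to -0.63 in YFP+ and -0.29 in YFP- cells. The 2 probes of Ltbp1 thus disagreed in sign in 2 of these comparisons, and neither the size nor the direction of a difference could be read.

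The order of the 4 groups differed from gene to gene. Inhba averaged -0.80 ± 0.67 in tumor YFP+, -0.79 ± 0.18 in tumor YFP-, -6.99 ± 0.16 in normal YFP+ and -6.23 ± 1.15 in normal YFP- cells (SD, n = 5, 5, 3 and 3). Smad7 averaged -2.79 ± 0.45 in tumor YFP+, -2.85 ± 0.45 in tumor YFP-, -5.42 ± 0.17 in normal YFP+ and -6.87 ± 0.25 in normal YFP- cells. In both genes the tumor groups did not differ beyond their spread, and no normal sample was well above background. Tgfb2 averaged -6.87 ± 0.36 in tumor YFP+, -3.09 ± 0.83 in tumor YFP-, -4.13 ± 1.88 in normal YFP+ and -3.51 ± 1.26 in normal YFP- cells. Tumor YFP+ cells thus had the lowest group mean for Tgfb2. Normal YFP- cells did not pass the test against tumor YFP- cells or against normal YFP+ cells. Tumor YFP- against normal YFP+ cells and tumor YFP+ against normal YFP- cells were not tested. Tgfb3 averaged -0.86 ± 0.24 in tumor YFP+, -0.39 ± 0.39 in tumor YFP-, -1.97 ± 0.58 in normal YFP+ and -1.52 ± 0.20 in normal YFP- cells, and the 2 populations of one tissue did not pass the test.

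Of the genes most like each member over the 16 arrays, those of Inhba were Tgm2 (r = 0.984), Plet1 (0.983) and Il1r2 (0.981), where Tgm2 encodes a transglutaminase and Il1r2 a decoy receptor for interleukin 1. Those of Smad7 were Sorl1 (0.992), Got1 (0.990) and an unannotated transcript (0.988), and those of Tgfb3 were Tcf7l2 (0.920), Csf1 (0.914) and Neu1 (0.909). Tgfb1 was most like an unannotated transcript (0.950), Tmem132a (0.947) and Slc25a5 (0.947). Tgfbr1 was most like Atp6v1d (0.953), Ube2j2 (0.950) and an unnamed probe (0.948), and Tgfbr2 most like Itm2b (0.976), Focad (0.963) and Il10rb (0.963). All of these share the same arrays and the tumor and normal split, so the correlations are a description.

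Around these 10 genes, 98 further genes of the pathway were followed in 7 lists, all 98 on the array and 88 tested. Of the 88, 15 rose and 7 fell between tumor YFP+ and normal YFP+ cells (25.0% in all, against 12.1% of all genes), with a median log2 difference of 0.04. Between tumor YFP- and normal YFP- cells 27 rose and 5 fell (36.4%, against 15.8%), with a median of 0.39. Between tumor YFP+ and tumor YFP- cells 0 rose and 16 fell (18.2%, against 2.39%), with a median of -0.33. None of the 88 passed the limma test between the normal populations or in the interaction. The lists were chosen with earlier results of these data known, and 7 of the 98 genes are also cell type markers here, 6 of them among the targets.

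The latency and activation list holds genes that bind, anchor or release latent TGF-beta or process its precursor. Of 14 tested, 4 rose and 1 fell in YFP+ and 6 rose in YFP- cells. Thbs1, whose product thrombospondin-1 activates latent TGF-beta, was higher by 5.20 ± 0.46 (limma adjusted p = 4.64e-06) in YFP+ and by 5.29 ± 0.46 (2.96e-06) in YFP- cells on the log2 scale (SE). Ltbp3, a latent TGF-beta binding protein, was higher by 1.16 and 1.40, and Itgb5, an integrin chain that binds the latent complex, by 1.2 and 1.12. The Itgb5 calls were lost without the normal sample of mouse 23912 of the same population. Emilin1, a matrix protein that limits processing of the TGF-beta precursor, was higher by 1.73 in YFP+ cells and Ltbp2 by 1.52 in YFP- cells. The 1 gene that fell, named after its values were seen, was Nrros (-0.71 in YFP+ cells), which anchors latent TGF-beta on myeloid cells.

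Of the feedback genes and co-repressors, most did not pass the test. Of 12 tested, 3 rose and 1 fell in tumor YFP+ cells, and 4 rose and 1 fell in tumor YFP- cells, with median log2 differences of 0.02 and 0.12. Pmepa1, which interferes with Smad activation, was higher by 2.0 (limma adjusted p = 0.000252) in YFP+ and by 2.22 (8.33e-05) in YFP- cells. Skil, a co-repressor of the Smads, was higher by 1.35 and 1.43, and Tgif1, a homeodomain co-repressor, by 1.32 and 1.49. Wwp1, an E3 ubiquitin ligase, fell by 1.79 in YFP+ tumor cells and fell by 2.40 in YFP- tumor cells. Nedd4l, another such ligase named after its values were seen, was higher by 0.98 in YFP- cells. None of the 7 tested genes of the Smad list (Smad1 to Smad6 and Zfyve9, which encodes a Smad anchor) passed the limma test in either tumor comparison.

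Targets of the pathway were higher in tumor more often in YFP- than in YFP+ cells by count, a difference between counts that was not tested. Of 26 tested, 8 rose and 2 fell in YFP+ cells, and 15 rose in YFP- cells. Over all genes 6.03% rose and 6.06% fell in YFP+ cells, and 8.03% rose in YFP- cells. The median log2 difference of the targets was 0.18 in YFP+ and 1.84 in YFP- cells. Of the fibroblast markers 0 of 11 were higher and 1 lower in YFP+ tumor cells (median log2 difference -0.54), and 3 of 11 were higher in YFP- tumor cells (1.16). Col1a1, Col1a2 and Col3a1 are in both lists, and the targets Acta2 and Tagln are in the smooth muscle and pericyte marker list. Of these, Acta2 rose by 2.10 in YFP+ and by 2.94 in YFP- cells, and Col1a1 rose by 2.34 in YFP- cells. The part of fibroblasts and other stromal cells in the target counts was not tested. Timp1, an inhibitor of matrix metalloproteinases, was higher by 5.51 in YFP+ and by 5.90 in YFP- cells, and Itgae, the integrin alpha E chain, by 5.60 and 4.37. Id1, better known as a BMP target, was higher by 3.33 in YFP+ cells, and Bhlhe40, a transcriptional repressor, by 3.65 in YFP- cells. Only 1 of 3 normal arrays of each population was well above background for Timp1, and 1 of 3 normal YFP+ arrays for Id1 and for Acta2. The 2 targets that fell in YFP+ cells, named after their values were seen, were Ccn1 (-3.24) and Klf10 (-1.34). Itgae is also a dendritic cell marker, and of that list 2 of 8 were higher and 2 lower in YFP+ tumor cells, and 2 were higher and 1 lower in YFP- tumor cells.

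Few other ligands, receptors and antagonists passed the test between tumor and normal. Bmp2, a bone morphogenetic protein, fell by 1.99 in tumor in YFP+ (limma adjusted p = 0.0310) and fell by 1.83 in YFP- cells (0.0386), and Gdf15, a divergent member of the superfamily, was higher by 1.04 in YFP- cells (0.0436). Acvrl1, a type I receptor, fell by 0.63 in YFP- cells (0.0420). Grem1, an antagonist of bone morphogenetic proteins, was at least 1.94-fold lower in tumor YFP+ and at least 1.62-fold lower in tumor YFP- cells. Dcn, which encodes the TGF-beta binding proteoglycan decorin, fell by 3.15 in tumor YFP+ cells. Lefty1, an inhibitor of Nodal, fell by 1.49 and Fstl1, a follistatin-like protein, rose by 1.52 in tumor YFP- cells. Of these, every call was lost in at least 1 of the alternatives, Grem1 only with normexp correction and Dcn only without the normal YFP+ sample of mouse 23916 or 23917.

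**Figure D4:**
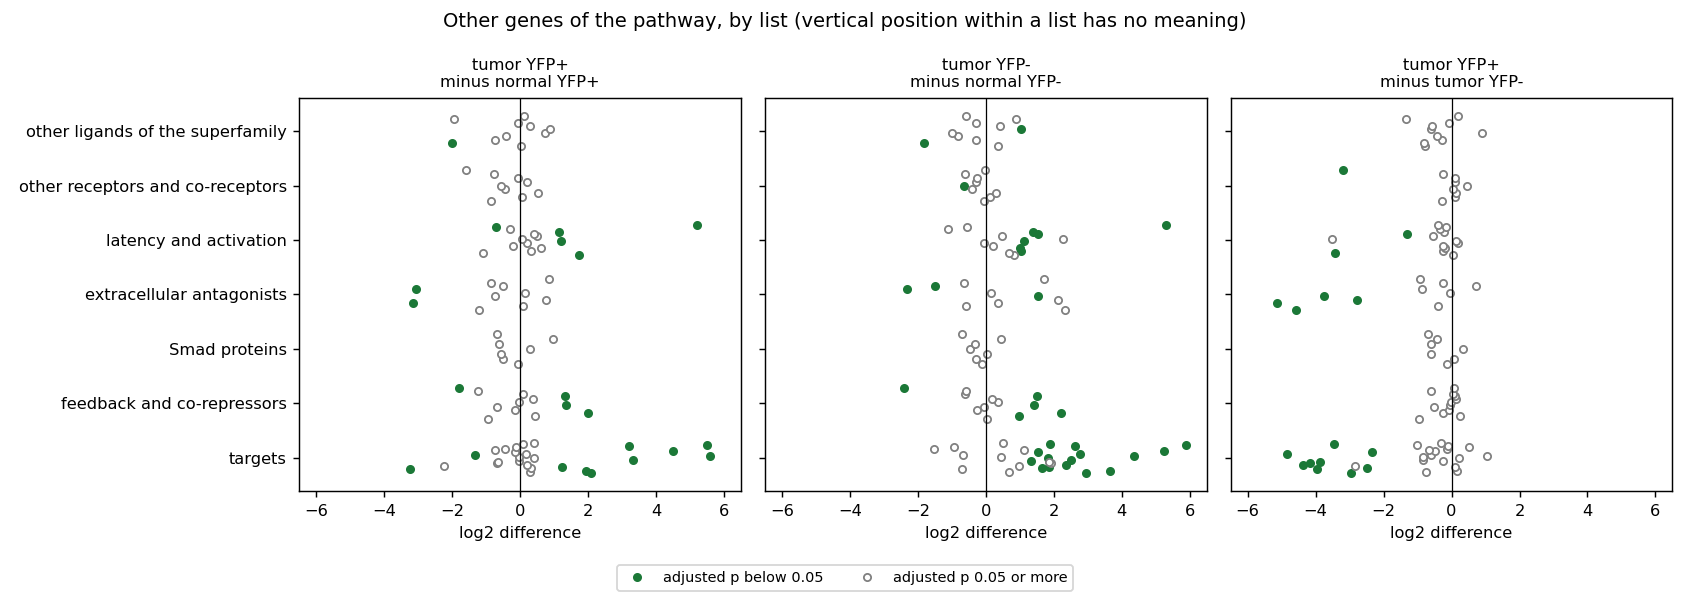
Log2 differences of the 88 tested pathway genes outside the 10, by list, 1 point per gene, in tumor YFP+ against normal YFP+, tumor YFP- against normal YFP- and tumor YFP+ against tumor YFP-. Filled points passed the limma test at an adjusted p of 0.05. In the first comparison 15 are filled on the right and 7 on the left, in the second 27 and 5, and in the third 0 and 16.

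Within tumors the pathway genes that passed were all lower in YFP+ cells. They were 9 of 26 targets, 4 of 10 antagonists, 2 of 14 latency genes and 1 of 9 receptors. Tgfbr3, the co-receptor betaglycan that presents TGF-beta 2 to the signalling receptors, was at a mean of -3.59 ± 0.88 in tumor YFP+ and -0.39 ± 0.68 in tumor YFP- cells (SD, n = 5 each; difference -3.21, limma adjusted p = 0.00109). Ltbp2 fell by 1.30. Fbn1, the fibrillin to which latent complexes attach, fell by 3.44, but only 1 of 5 tumor YFP+ arrays was well above background for it, and with normexp correction it fell by 1.61. Of the antagonists, Dcn fell by 5.14, Bgn fell by 4.57 and Fstl1 fell by 3.76. Fst, the activin-binding follistatin, fell by 2.77 (limma adjusted p = 0.0419) with 2 of 5 tumor YFP+ arrays well above background, a call that was lost in 13 of the alternatives. Of the targets, Lox, which encodes lysyl oxidase, was at least 11.6-fold lower, Col1a1 fell by 4.38, Col1a2 fell by 4.17 and Ccn1 fell by 3.96. Col1a1, Col1a2 and Dcn are also in the fibroblast list whose levels are given above, and the part of fibroblasts in these differences was not tested.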

How the data were processed

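The authors deposited Agilent Feature Extraction files, which per the file headers hold red-channel intensity values, already background subtracted and detrended, with a surrogate for spots at background. Per the labels' protocols, total RNA from cells sorted into lysis buffer was made into cDNA with a whole transcriptome amplification kit and coupled chemically to Cy5. Scans were read with Agilent Feature Extraction 11.5.1.1, per the submitters' processing notes. The deposited log2 values were used as an alternative. Each array held 43020 spots other than controls, for 39429 probes. Outlier spots were left out (335 missing probe values), spots of a probe were averaged, log2 signal was scaled to the 75th percentile, and probes well above background on at least 3 arrays were kept. Genes other than the 10 were named through a RefSeq table (28317 probes through their accession, 2203 through a symbol and 174 through an older symbol), while 8721 kept the file's name.

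Groups were compared with limma 3.58.1 (R 4.3.3) in a model of 4 group means over 16 arrays, two-sided, with Benjamini-Hochberg adjustment over 24278 genes and a threshold of 0.05; the fit was tested on simulated data. The first-named group is on top of each difference. All 10 genes are named in each comparison; of every list and comparison up to 4 genes past the threshold with the largest difference are named, except for a result that is not reported here. The members, gene lists and marker lists were chosen with earlier results of these data known. Alternatives were normexp correction, quantile normalization, the deposited values, other filters, the mean of a gene's probes, slide as a block and within slides, the mouse number as a block, and leaving out each array. Samples of the same number did not deviate together in all mice (r = -0.290 to 0.314), so the fit without the block was kept.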

Additional observations from a re-analysis of the deposited data

Results flagged for a closer look

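In tumor YFP+ cells the Tgfb2 level of -6.24 (mouse 23548) lay far from the other 4 samples, of which the nearest was at -6.96; its gap was 0.835 of the range of the group. None of the 5 samples was well above background there. Of 20 groups of values examined in this way, 1 stood out, and chance gives about 1 in 20.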

How the results depend on the processing

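Of the 12 differences of the 10 genes that passed the test, 6 did so under every alternative that tested them: Tgfb2 between the tumor populations, Inhba and Smad7 in both tumor comparisons and Tgfb3 in YFP- cells. No direction reversed among called differences. Of 1195 comparisons of an alternative with the reported fit, 24 lost a call and 3 gained one. With the stricter filter, which left out Tgfb2, 0 of the 10 genes passed between the tumor populations. For all genes, the count between the normal populations (5) was 0 with normexp correction, 17 with quantile normalization, 15 with the deposited values, 10 with no filter, 2 with slide as a block and 0 with the replicate block by mouse number; the interaction (25) was 9 with slide as a block and 16 with the replicate block. The replicate block changed no call of the 10 genes. Leaving out single arrays gave 0 to 334 genes between the normal populations, 9 to 64 in the interaction, 424 to 648 between the tumor populations, 1957 to 3222 between tumor and normal YFP+ cells and 2395 to 4748 between tumor and normal YFP- cells. Of the 10 genes, 2 to 6 then passed in YFP+ cells, with 3 without the normal sample of mouse 23916 and 2 without that of 23917, and 3 to 6 in YFP- cells, with 3 without the normal sample of mouse 23916. The median over all genes of the YFP- tumor minus normal difference was -0.16, and 0.06 with normexp correction. Signal over background limits the size of the Inhba, Smad7 and Tgfb2 differences. Of the 44 named differences of other pathway genes, 32 passed under every alternative run. The cause of these changes was not tested.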
